A study of Homo sapiens with 6 samples.

Results

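Cholesterol and fatty acids are both built in the cytosol from acetyl-CoA, and the genes of both routes are described here in HEC-1B, a cell line from a human endometrioid carcinoma. A list of 32 genes was fixed with earlier results of these data known. These genes were taken by symbol, out of 23284 symbols in the deposited tables. They comprise 18 enzymes of cholesterol synthesis, 5 genes that control the SREBP transcription factors, 1 sterol carrier and 8 genes of fatty acid synthesis. All 32 symbols were present in each of the 6 libraries, and 31 passed the filter used for testing, which asked for 1 FPKM or more in 2 or more libraries. FPKM counts sequenced fragments for each kilobase of a gene's transcript and scales them to the fragments mapped in the library. Squalene epoxidase, SQLE, was the 1 gene that did not pass.

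In cells with little sterol in the endoplasmic reticulum, the escort protein SCAP carries the SREBP precursors to the Golgi, where proteases release the part that enters the nucleus. There SREBP-2 mainly turns on the enzymes of cholesterol synthesis, and SREBP-1c mainly those of fatty acid synthesis. When sterol is plentiful, the INSIG proteins hold SCAP back in the endoplasmic reticulum, and INSIG1 is itself an SREBP target, which closes a feedback loop.

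The study compared RNA of HEC-1B cells by aldehyde dehydrogenase (ALDH), a cancer stem cell marker followed with flow sorting, and asked about passage between a marker-low and a marker-high state. Its 3 groups of 2 libraries are all the HEC-1B line. The high-potential accelerated group is labelled as HEC-1B with high ALDH potential and as ALDH-high accelerated. The HEC-1B accelerated group carries the ALDH-high accelerated label on HEC-1B without the high-potential wording, and the HEC-1B high-to-low group is labelled as going from ALDH-high to low. The labels name no agent, gene edit, clone or time, and a high-potential group going from high to low was not analysed here. The high-potential and the accelerated label therefore cannot be told apart when the high-potential accelerated group is compared with the high-to-low group. The labels do not say whether replicates were separate cultures, so the tests gauge only how far these libraries scatter, and that scatter may be technical.

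ALDH1A1, a gene of the ALDH family, stood at 352.5 and 303.6 FPKM in high-potential accelerated cells and 26.7 and 316.9 FPKM in HEC-1B accelerated cells. In HEC-1B high-to-low cells it stood at 28.4 and 9.45 FPKM. The sample titles speak of ALDH and do not name the gene. In ALDH1A1, the library labelled HEC-1B accelerated replicate 1 lay with the high-to-low libraries. The comparisons that use this library are given below with and without it. Relative depth, read from the steps between low values, ran between 0.807 and 1.074, and a single fragment on 1 kilobase of transcript came to between 0.0916 and 0.122 FPKM. Small RNA genes held 9.03 to 18.63% of the summed FPKM, and pairs of libraries correlated across genes at 0.897 to 0.964 in log2 values, a description only. HEC-1B accelerated replicate 1 correlated at 0.964 and 0.943 with high-to-low replicates 1 and 2, against 0.932 with HEC-1B accelerated replicate 2. HEC-1B accelerated replicate 2 correlated at 0.937 and 0.948 with high-to-low replicates 1 and 2. The summed simple epithelial markers, 4 of 5 of which passed the filter, ranged between 407.8 and 590.0 FPKM. KRT8 was at 49.4 and 47.1 FPKM in high-potential accelerated cells, against 90.6 to 107.7 FPKM in the other 4 libraries, and EPCAM at 3.49 and 2.16 FPKM, against 4.44 to 10.6 FPKM. These 2 markers set the high-potential libraries apart, and their part in the results was not tested. KRT19, of the same 5 markers, was not lower in high-potential accelerated cells and overlapped between groups. It had 46.05 and 27.12 FPKM there, 44.64 and 16.93 FPKM in HEC-1B accelerated cells and 39.74 and 17.7 FPKM in HEC-1B high-to-low cells. KRT18 ranged between 290.6 and 464.4 FPKM and PAX8, a marker of Müllerian epithelium, between 123.1 and 188.9 FPKM, whereas CDH1 did not exceed 0.0868 FPKM and EMX2, ESR1 and PGR were listed at 0 in all 6 libraries. The summed markers of leukocytes (4 genes), endothelium (3 genes), fibroblasts (4 genes) and the lipid-making hepatocytes and adipocytes (4 genes) stayed under 1 FPKM in each library, the highest sum being 0.972 FPKM for endothelium. In bulk RNA such as this, fewer cells of a kind and less RNA per cell cannot be told apart.

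SREBPs act with the factors NF-Y and Sp1 at the promoters of their targets, so the starts of these genes were read for the core of the sterol regulatory element (CACNCCAC), the NF-Y box (CCAAT), the Sp1 box (GGGCGG) and the E-box (CACGTG), each on both strands. RefSeq windows of 300 bases, from 250 before a transcript start to 50 after it (GRCh38.p14), matched 28 of the 32 genes and held 39 starts. The upstream 250 bases, at the start that lies farthest upstream, are printed for 5 genes. HMGCS1 is shown because it varied most among the tested genes, CYP51A1, MSMO1 and SC5DL because they are the late cholesterol enzymes whose high-potential libraries lay above both other groups, and INSIG1 because it is the feedback gene. The windows are chr5:43313413-43313662 (minus strand), chr7:92134478-92134727 (minus strand), chr4:165327419-165327668 (plus strand), chr11:121292521-121292770 (plus strand) and chr7:155297628-155297877 (plus strand), each read 5′ to 3′ along the gene. Capitals mark matches to any of the 4 motifs, in either direction.
HMGCS1: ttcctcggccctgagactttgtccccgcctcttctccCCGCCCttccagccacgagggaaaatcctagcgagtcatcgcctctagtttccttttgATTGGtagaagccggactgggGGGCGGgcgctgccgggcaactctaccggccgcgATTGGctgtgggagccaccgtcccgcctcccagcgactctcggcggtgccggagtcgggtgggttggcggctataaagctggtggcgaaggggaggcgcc
CYP51A1: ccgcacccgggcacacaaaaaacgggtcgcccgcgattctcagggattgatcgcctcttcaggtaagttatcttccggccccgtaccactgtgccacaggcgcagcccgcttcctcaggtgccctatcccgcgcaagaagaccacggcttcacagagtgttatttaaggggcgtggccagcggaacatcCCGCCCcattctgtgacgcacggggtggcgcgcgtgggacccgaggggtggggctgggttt
MSMO1: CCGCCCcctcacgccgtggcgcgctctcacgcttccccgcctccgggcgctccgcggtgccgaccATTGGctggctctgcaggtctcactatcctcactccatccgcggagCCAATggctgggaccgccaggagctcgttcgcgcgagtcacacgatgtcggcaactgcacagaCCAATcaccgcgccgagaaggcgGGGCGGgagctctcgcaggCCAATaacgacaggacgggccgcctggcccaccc
SC5DL: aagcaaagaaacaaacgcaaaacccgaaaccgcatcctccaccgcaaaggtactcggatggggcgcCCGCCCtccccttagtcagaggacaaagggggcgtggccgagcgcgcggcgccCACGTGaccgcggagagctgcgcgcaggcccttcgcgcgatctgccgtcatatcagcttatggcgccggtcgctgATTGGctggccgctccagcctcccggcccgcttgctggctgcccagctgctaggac
INSIG1: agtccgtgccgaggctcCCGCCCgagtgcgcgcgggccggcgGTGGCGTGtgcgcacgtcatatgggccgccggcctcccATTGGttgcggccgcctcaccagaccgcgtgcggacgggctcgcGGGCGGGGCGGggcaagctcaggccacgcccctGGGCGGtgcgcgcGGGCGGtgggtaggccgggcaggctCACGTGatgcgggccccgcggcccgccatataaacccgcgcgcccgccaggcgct

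MSMO1 carried 4 NF-Y boxes in this stretch, HMGCS1 carried 2, and INSIG1 and SC5DL carried 1 each. CYP51A1 held none of the searched letters except 1 Sp1 box. INSIG1 and SC5DL each had all 4 motifs in a full window, the core of INSIG1 lying upstream of its NF-Y box and that of SC5DL past the start, outside the printed stretch. Over the 28 genes, 21 had an NF-Y box in at least 1 window (75%), against 39.7% of the 27305 genes in the table and 34.6% of its 35116 windows. A Sp1 box was found in 27 of the 28 genes (96.4%), against 48.3% of all genes and 45% of all windows. The sterol element core was found in 6 genes, namely INSIG1, IDI1, SCD, SC5DL, ACACA and SREBF2 (21.4%), against 7.05% of all genes and 5.87% of all windows. An E-box was found in SCAP, INSIG1, SC5DL and LSS (14.3%), against 8.77% of all genes and 7.26% of all windows. These background shares cover all 27305 genes with a window, expressed in these libraries or not, and base composition was not matched. No match of 1 motif overlapped a match of another in these genes. A match is a string of letters and not a site shown to be bound, and a window without a match shows no more than that those letters are not in it.

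**Figure D1:**
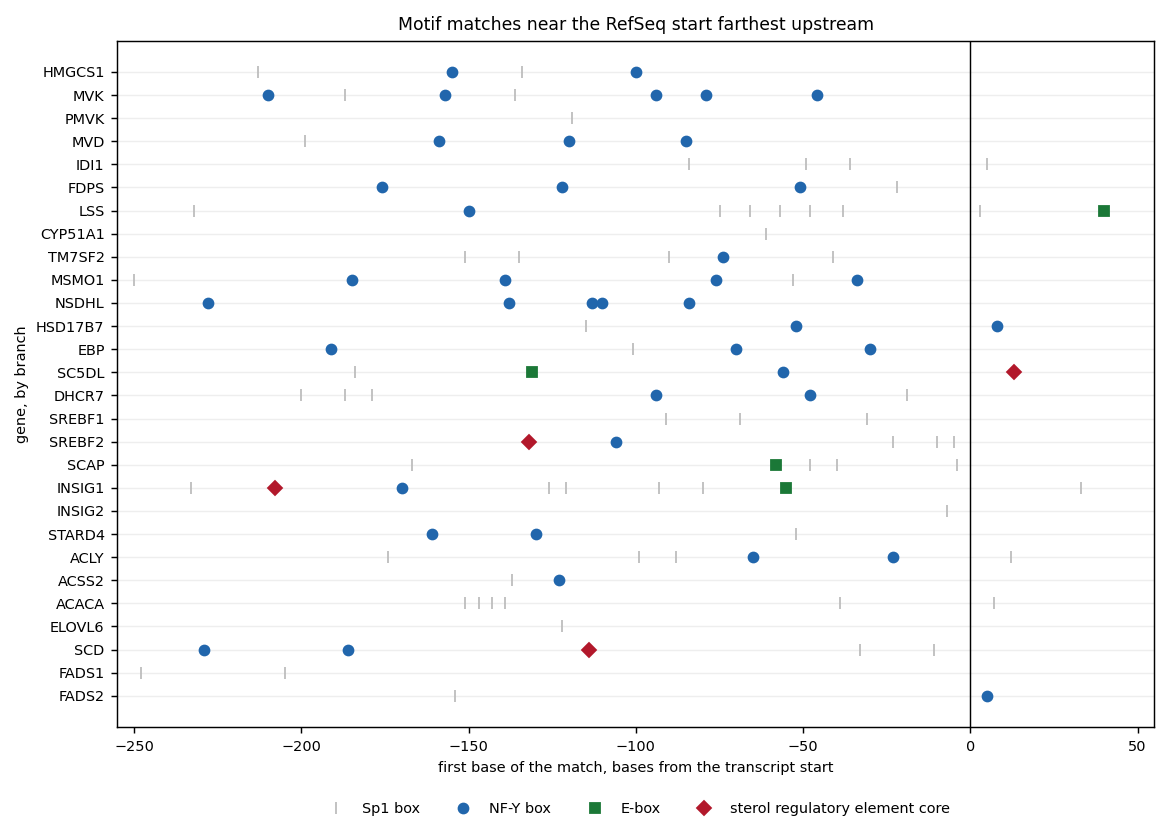
Positions of motif matches around the RefSeq transcript start farthest upstream, for the 28 genes with a window, listed by branch. The x axis gives the distance of the first base of each match from the start, in bases, and a diamond marks the sterol regulatory element core, a square the E-box, a circle the NF-Y box and a tick the Sp1 box. All but 2 NF-Y boxes lie upstream of the start, and the rows of INSIG1 and SC5DL hold all 4 symbols. The cores of IDI1 and ACACA lie at other starts of those genes and are not drawn.

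The first steps join acetyl-CoA units into mevalonate and turn that into isoprenoid diphosphates. HMGCS1, the cytosolic HMG-CoA synthase, had 121.2 and 347.3 FPKM in high-potential accelerated cells, 113.6 and 71.0 FPKM in HEC-1B accelerated cells and 116.9 and 39.6 FPKM in HEC-1B high-to-low cells. Replicate 1 of each group sat close to the others, and the spread came from the second replicates, so that the highest and lowest libraries differed 8.78-fold. ACAT2, the cytosolic acetoacetyl-CoA thiolase, ranged between 65.0 and 192.6 FPKM, and its replicate 2 was higher than its replicate 1 in each group. TCP1, which overlaps ACAT2 at its end on the opposite strand and cannot be separated from it in a library without strand, had 148.5 and 176.7 FPKM in high-potential accelerated cells, 88.7 and 154.9 FPKM in HEC-1B accelerated cells and 101.3 and 194.3 FPKM in HEC-1B high-to-low cells. TCP1 too was higher in replicate 2 of each group, and its part in the ACAT2 values was not tested.

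PMVK, phosphomevalonate kinase, had 37.6 and 29.9 FPKM in high-potential accelerated cells, 40.4 and 47.0 FPKM in HEC-1B accelerated cells and 50.8 and 46.7 FPKM in HEC-1B high-to-low cells. It was the lone sterol enzyme whose high-potential libraries both lay under all 4 others. MVK, the mevalonate kinase one step earlier, was the least abundant tested enzyme of the route, at 4.80 to 10.0 FPKM. MVD, the mevalonate diphosphate decarboxylase, had 43.9 and 48.6 FPKM in high-potential accelerated cells, a highest value of 37.0 FPKM in HEC-1B accelerated cells and a highest value of 45.9 FPKM in HEC-1B high-to-low cells. IDI1, the isopentenyl diphosphate isomerase, ranged between 163.3 and 257.5 FPKM, and FDPS, the farnesyl diphosphate synthase, between 132.9 and 260.4 FPKM. IDI2, the near copy of IDI1, stood at 0.294 to 1.03 FPKM.

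Farnesyl diphosphate enters the sterol branch through squalene. FDFT1, squalene synthase, was the most abundant of the 32 genes, with 406.2 and 508.8 FPKM in high-potential accelerated cells, 202.3 and 315.2 FPKM in HEC-1B accelerated cells and 242.6 and 313.9 FPKM in HEC-1B high-to-low cells. Both high-potential libraries were above all 4 others. The next enzyme, SQLE, was listed at 0.588 and 0.243 FPKM in high-potential accelerated cells, 0.176 and 0.216 FPKM in HEC-1B accelerated cells and 0.0304 and 0.0699 FPKM in HEC-1B high-to-low cells, far under its neighbours in the route. Whether its fragments were lost in the authors' counting could not be checked here, so these values may not reflect its transcript level. These values are whole multiples of 1 step, worth 18 and 6 fragments in high-potential accelerated cells, 5 and 6 in HEC-1B accelerated cells, and 1 and 2 in HEC-1B high-to-low cells. The depth-corrected ratio of 24 fragments in high-potential accelerated cells to 3 in HEC-1B high-to-low cells was 8.89, with an exact 95% interval of 2.7 to 46.1. That interval covers counting error only and compares these libraries, not the conditions. LSS, lanosterol synthase, lay between 21.4 and 35.3 FPKM, and its groups overlapped.

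From lanosterol to cholesterol, methyl groups are removed and double bonds moved or reduced. MSMO1, the methyl sterol oxidase, had 204.9 and 204.3 FPKM in high-potential accelerated cells, 122.4 and 108.5 FPKM in HEC-1B accelerated cells and 131.5 and 150.6 FPKM in HEC-1B high-to-low cells. CYP51A1, the lanosterol demethylase, had 150.5 and 185.2 FPKM in high-potential accelerated cells, 99.8 and 93.0 FPKM in HEC-1B accelerated cells and 101.1 and 135.0 FPKM in HEC-1B high-to-low cells. SC5DL, the older symbol of the sterol desaturase SC5D, had 23.01 and 28.97 FPKM in high-potential accelerated cells, 15.0 and 12.4 FPKM in HEC-1B accelerated cells and 14.0 and 14.7 FPKM in HEC-1B high-to-low cells. For these 3 enzymes both high-potential libraries lay above the other 4. In 21.1% of all genes they lay above the HEC-1B accelerated libraries without overlap, and in 24.7% above the high-to-low libraries. They lay below in 22.3 and 26.4%. The share of all genes beyond all 4 was not counted. How unusual it is for a gene named here to lie above or below the other 4 therefore cannot be read. DHCR7, the reductase whose loss causes Smith-Lemli-Opitz syndrome, had 89.2 and 126.9 FPKM in high-potential accelerated cells, 61.1 and 60.9 FPKM in HEC-1B accelerated cells and 62.8 and 99.6 FPKM in HEC-1B high-to-low cells. High-to-low replicate 2 lay within the high-potential range there. The same held for NSDHL, a sterol dehydrogenase of the demethylation steps, which ranged between 44.5 and 103.1 FPKM. EBP, the sterol isomerase, ranged between 128.5 and 209.7 FPKM with high-to-low replicate 2 the highest, and TM7SF2, a sterol reductase, between 31.7 and 84.0 FPKM. HSD17B7, the keto-sterol reductase, ranged between 23.6 and 48.0 FPKM. Its pseudogene copy HSD17B7P2 stood at 3.59 to 7.65 FPKM, and how the authors' counting divided reads between them is not known.

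**Figure D2:**
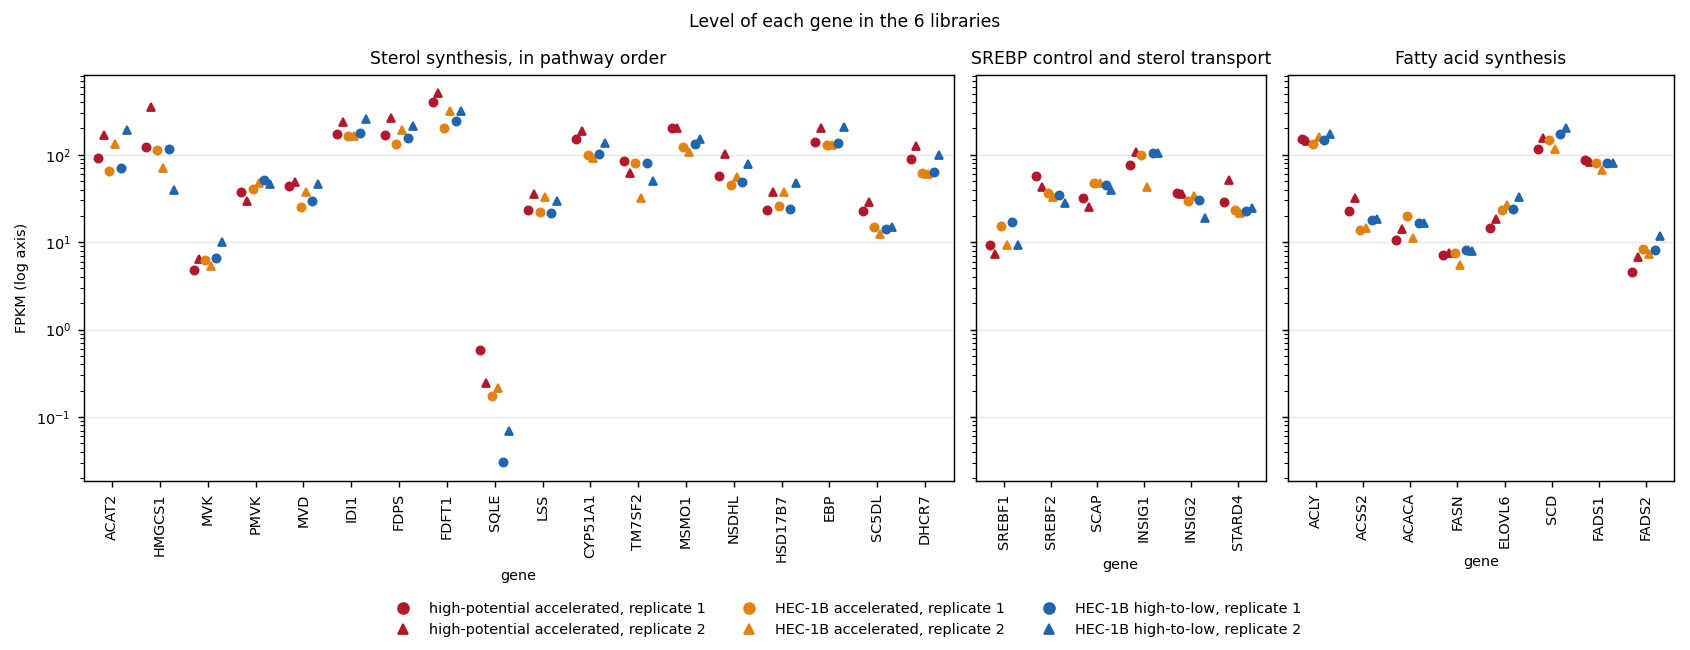
FPKM of the 32 genes in each library, on a log axis, with sterol synthesis in pathway order on the left, SREBP control and the carrier STARD4 in the middle and fatty acid synthesis on the right. Red points are the high-potential accelerated, orange the HEC-1B accelerated and blue the HEC-1B high-to-low libraries, with circles for replicate 1 and triangles for replicate 2. FDFT1 lies at the top of the range, SQLE is the lone gene under 1 FPKM, and the red points of MSMO1, CYP51A1 and SC5DL lie above the rest.

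Among the control genes, SREBF2, which encodes SREBP-2, had 57.0 and 43.0 FPKM in high-potential accelerated cells, 36.2 and 32.6 FPKM in HEC-1B accelerated cells and 34.5 and 28.4 FPKM in HEC-1B high-to-low cells. SREBF1, which encodes the SREBP-1 proteins, was lower throughout, with 9.31 and 7.32 FPKM in high-potential accelerated cells, 15.2 and 9.20 FPKM in HEC-1B accelerated cells and 17.2 and 9.24 FPKM in HEC-1B high-to-low cells. The quotient of SREBF2 over SREBF1 was 6.12 and 5.87 in high-potential accelerated cells, 2.38 and 3.54 in HEC-1B accelerated cells and 2.01 and 3.08 in HEC-1B high-to-low cells. SREBF1 overlapped between all groups, whereas the high-potential libraries were above the other 4 in SREBF2 and in the quotient. SCAP, the escort protein, had 32.1 and 25.4 FPKM in high-potential accelerated cells, 47.7 and 47.2 FPKM in HEC-1B accelerated cells and 45.1 and 39.9 FPKM in HEC-1B high-to-low cells. Its high-potential libraries lay below the other 4.

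INSIG1, the SREBP-induced anchor, had 76.4 and 108.0 FPKM in high-potential accelerated cells, 99.5 and 42.6 FPKM in HEC-1B accelerated cells and 104.2 and 104.8 FPKM in HEC-1B high-to-low cells. HEC-1B accelerated replicate 2 stood apart as the lowest library, the other 5 lay between 76.4 and 108.0 FPKM, and both HEC-1B accelerated libraries were below both high-to-low libraries. INSIG2, the other anchor, ranged between 19.1 and 36.9 FPKM, with 36.9 and 35.8 FPKM in high-potential accelerated cells, above the other 4. STARD4, a soluble carrier that moves sterol between membranes, had 29.2 and 51.4 FPKM in high-potential accelerated cells, 23.2 and 21.8 FPKM in HEC-1B accelerated cells and 22.9 and 24.6 FPKM in HEC-1B high-to-low cells. Its high-potential libraries lay above the other 4, which were within 3 FPKM of one another.

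Fatty acid synthesis begins with the supply of cytosolic acetyl-CoA. ACLY, which cleaves citrate, ranged between 131.9 and 171.8 FPKM with overlapping groups. ACSS2, which makes acetyl-CoA from acetate, had 22.7 and 32.0 FPKM in high-potential accelerated cells, 13.9 and 14.4 FPKM in HEC-1B accelerated cells and 18.1 and 18.6 FPKM in HEC-1B high-to-low cells, so that no group overlapped another. ACACA, acetyl-CoA carboxylase, ranged between 10.61 and 20.02 FPKM. FASN, the fatty acid synthase itself, stood at 5.51 to 8.05 FPKM in all 6 libraries, a low level per length beside the 116.1 to 201.1 FPKM of the desaturase SCD, which acts on its saturated products.

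ELOVL6, which lengthens palmitate, had 14.4 and 18.4 FPKM in high-potential accelerated cells, 23.6 and 26.6 FPKM in HEC-1B accelerated cells and 23.8 and 32.8 FPKM in HEC-1B high-to-low cells. FADS2, a desaturase of polyunsaturated fatty acids, had 4.57 and 6.78 FPKM in high-potential accelerated cells, 8.41 and 7.31 FPKM in HEC-1B accelerated cells and 8.15 and 11.7 FPKM in HEC-1B high-to-low cells. For both, the high-potential libraries lay under the other 4, opposite to ACSS2. FADS1, the neighbouring desaturase, ranged between 66.4 and 87.1 FPKM. SCD was highest in HEC-1B high-to-low cells at 172.0 and 201.1 FPKM, against 117.6 and 157.0 FPKM in the high-potential accelerated and 148.5 and 116.1 FPKM in HEC-1B accelerated cells.

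The difference between the 2 accelerated groups asks what the high-potential label goes with among cells labelled alike otherwise. Of the 17 tested sterol enzymes, 14 had higher values in the high-potential accelerated than in HEC-1B accelerated cells, and their median log2 difference was 0.49 on the log2(FPKM + 1) scale, which understates low genes. Over all 12135 genes tested, 50.4% were higher and the median was 0.005. The steps from lanosterol to cholesterol had 7 of 8 enzymes higher and a median of 0.70, and the mevalonate steps 5 of 7 and 0.40. The 8 fatty acid genes had 5 higher and a median of 0.04. Of the 31 genes, 15 lay above without overlap and 4 below, or 10 and 1 among the sterol enzymes, where the background was 21.1% of all genes above and 22.3% below. The 15 are a larger share of the 31 than the background and the 4 a smaller one. The genes were chosen with earlier results of these data known and were read in the same libraries. These counts are therefore a description and not a test.

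No gene of the 31 passed an adjusted p under 0.05 in limma, where 60 of all 12135 genes did (0.494%). At an unadjusted p under 0.05, 9 of the 31 passed, 7 higher and 2 lower, against 14.3% of all genes. HMGCS1 had the greatest log2 difference, 1.18 ± 0.66 (SE, limma adjusted p = 0.486), and lies at 0.43 without high-potential replicate 2. ACSS2 was at 0.88 ± 0.22 (limma adjusted p = 0.158), SC5DL at 0.87 ± 0.21 (limma adjusted p = 0.146) and FDFT1 at 0.85 ± 0.29 (limma adjusted p = 0.266). MSMO1, chosen after its values were seen because its adjusted p was the lowest of the 31, was at 0.82 ± 0.18 (limma adjusted p = 0.126), with means of 205 ± 0.452 FPKM in the high-potential accelerated and 115 ± 9.81 FPKM in HEC-1B accelerated cells (SD, n = 2 each). On the negative side stood SCAP at -0.71 ± 0.19 (limma adjusted p = 0.184), ELOVL6 at -0.59 ± 0.24 (limma adjusted p = 0.331), FADS2 at -0.42 ± 0.27 (limma adjusted p = 0.556) and PMVK at -0.37 ± 0.20 (limma adjusted p = 0.47).

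HEC-1B accelerated replicate 1 had ALDH1A1 within the range of the high-to-low libraries. Without that library, 13 of the 17 sterol enzymes were higher and the median was 0.38. Of the 8 fatty acid genes, 5 were higher at a median of 0.18. FDFT1 was then at 0.53, MSMO1 at 0.91, ACSS2 at 0.86, HMGCS1 at 1.52 and SCAP at -0.71, with limma adjusted p between 0.282 and 0.574. The library descriptions end in a number with 1 of 2 beginnings, and no label says what it means. One is shared by replicate 1 of each accelerated group and both high-to-low libraries, the other by replicate 2 of each accelerated group. Within the first beginning, 14 of 17 sterol enzymes were higher in the high-potential accelerated library than in the HEC-1B accelerated library (median 0.34), and within the other, 15 of 17 (median 0.65). The fatty acid genes lay at medians of -0.20 and 0.32 in the same pairs of libraries, so their sign was not shared. With high-potential replicate 2 left out, the sterol median was 0.18, so the size rests in large part on that library. It also had the highest small RNA share, 18.63%, and the lowest relative depth, 0.807, of the 6. With small RNA genes left out and the libraries rescaled the sterol median was 0.47.

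The high-potential accelerated group was next set against the high-to-low group, a comparison that uses the same 2 high-potential libraries as the one above. Here 12 of 17 sterol enzymes had higher values, with a median log2 difference of 0.20, and 49.2% of all genes were higher at a median of -0.01. The lanosterol-to-cholesterol enzymes had 6 of 8 higher (median 0.37), the mevalonate enzymes 4 of 7 (median 0.08). Of the fatty acid genes, 2 of 8 were higher, ACSS2 and FADS1, and the median was -0.26. Of the 31 genes, 10 lay above without overlap and 8 below, against a background of 24.7% above and 26.4% below. The count below is close to the background share and the count above a little over it, which is again a description and not a test.

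None of the 31 was called by limma in this comparison, against 97 of all genes (0.799%), and 10 had an unadjusted p under 0.05, 6 higher and 4 lower, against 18.4% of all genes. SC5DL, with 26.0 ± 4.21 FPKM in the high-potential accelerated and 14.4 ± 0.503 FPKM in HEC-1B high-to-low cells (SD, n = 2 each), was higher by 0.80 ± 0.21 (SE, limma adjusted p = 0.127). HMGCS1 differed by 1.58 ± 0.66 (limma adjusted p = 0.276), FDFT1 by 0.72 ± 0.29 (limma adjusted p = 0.264) and STARD4 by 0.68 ± 0.28 (limma adjusted p = 0.271). The HMGCS1 value depends on the second replicates, being 0.82 on omitting high-potential replicate 2 and 0.81 on omitting high-to-low replicate 2. MSMO1 stood at 0.54 ± 0.18 (limma adjusted p = 0.203). Lower values were measured for ELOVL6 at -0.74 ± 0.24 (limma adjusted p = 0.179), FADS2 at -0.71 ± 0.27 (limma adjusted p = 0.247), SCAP at -0.56 ± 0.19 (limma adjusted p = 0.211) and PMVK at -0.53 ± 0.20 (limma adjusted p = 0.241).

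The sterol median of this comparison does not hold its sign over single libraries. It was -0.10 with 8 of 17 enzymes higher without high-potential replicate 2, -0.01 with 8 of 17 without high-to-low replicate 1, 0.52 with 14 without high-potential replicate 1, and 0.63 with 14 without high-to-low replicate 2. Within the number beginning that both high-to-low libraries share with high-potential replicate 1, 8 of 17 sterol enzymes were higher and the median was -0.10. The fatty acid median stayed between -0.37 and -0.17 over the same omissions.

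**Figure D3:**
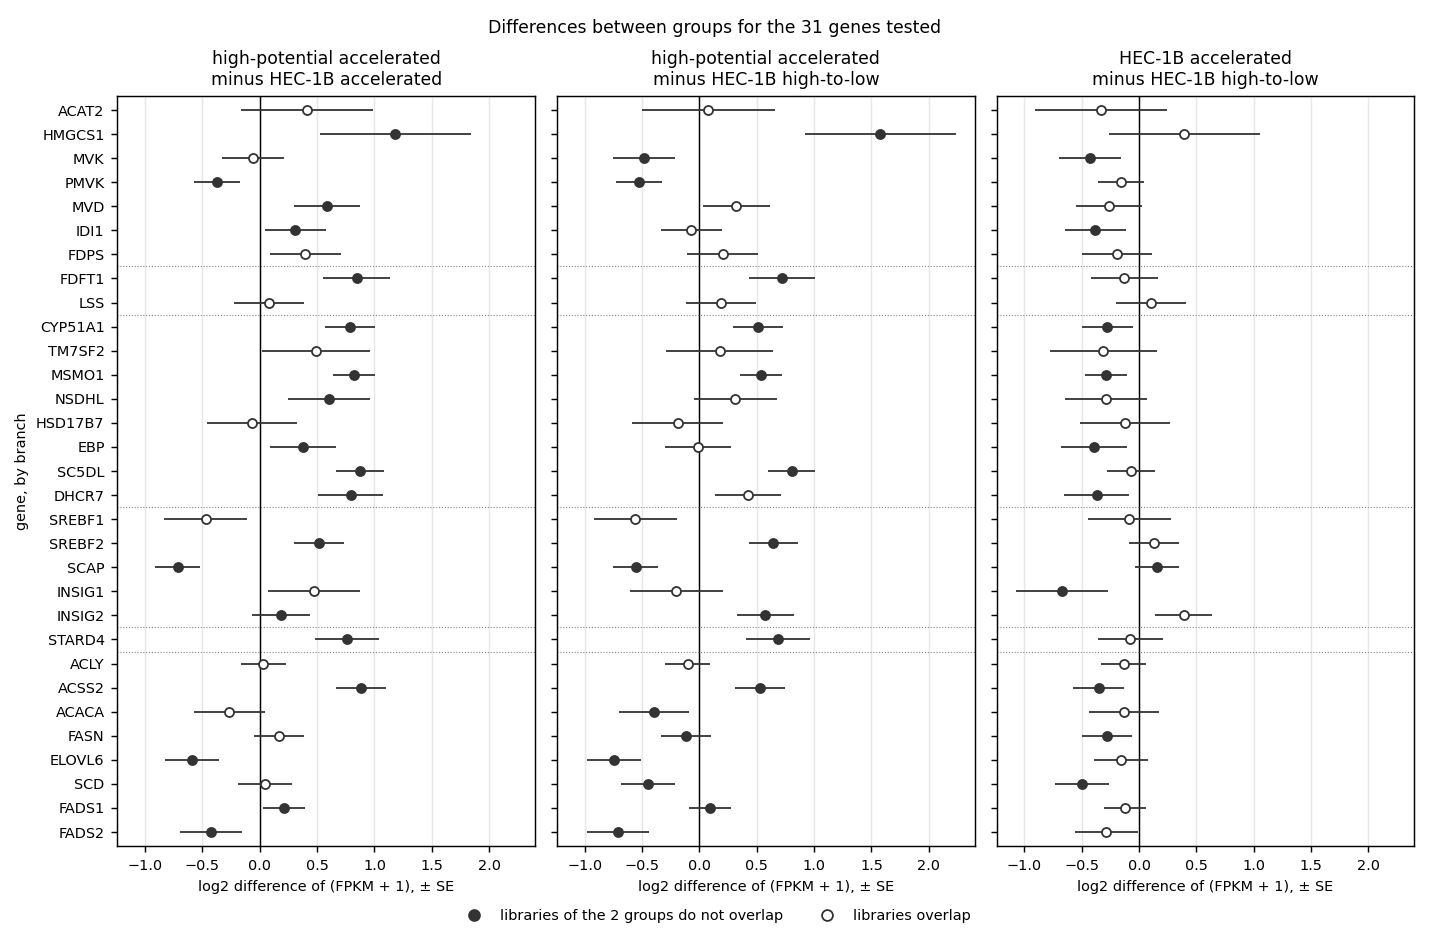
Log2 difference of (FPKM + 1) for the 31 tested genes, as point ± SE from limma, for the high-potential accelerated minus the HEC-1B accelerated group (left), the high-potential accelerated minus the high-to-low group (middle) and the HEC-1B accelerated minus the high-to-low group (right). Filled points mark genes without overlap between the libraries compared, and dotted lines part the branches. Most sterol enzymes lie right of 0 on the left panel and left of 0 on the right panel, while SCAP, PMVK, ELOVL6 and FADS2 lie left of 0 on the first 2 panels.

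Within HEC-1B without the high-potential label, the libraries labelled accelerated were set against those labelled high-to-low. Replicate 1 of the former lay within the range of the latter in ALDH1A1. Only 2 of 17 sterol enzymes, HMGCS1 and LSS, and none of the 8 fatty acid genes had higher values in the HEC-1B accelerated group, with medians of -0.28 and -0.22, against 47% of all genes and a median of -0.016. Of the 31 genes, 1 lay above without overlap (SCAP) and 10 below, against a background of 11.4% above and 12.7% below. None of the 31 was called by limma, where 2 of all genes were (0.0165%), and none reached an unadjusted p under 0.05, against 0.972% of all genes. INSIG1 at -0.67 ± 0.40, SCD at -0.50 ± 0.24, MVK at -0.43 ± 0.27 and EBP at -0.39 ± 0.29 had the most negative values without overlap, and SCAP was at 0.16 ± 0.19 (SE, limma adjusted p = 1 for each). Without HEC-1B accelerated replicate 1, 7 of 17 sterol enzymes were higher and the median was -0.12, and without high-to-low replicate 2 they were again 7, with a median of -0.04. INSIG1 was at -1.28 and SCD at -0.68 without HEC-1B accelerated replicate 1 (limma adjusted p = 0.616 and 0.754), and the fatty acid genes had 1 of 8 higher at a median of -0.35. Within the shared number beginning, HEC-1B accelerated replicate 1 was higher than the mean of both high-to-low libraries in 3 of 17 sterol enzymes, at a median of -0.37.

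With both accelerated groups averaged and set against the high-to-low group, the sterol enzymes had 10 of 17 higher values and a median of 0.01, and the fatty acid genes 1 of 8 and -0.23. None of the 31 was called by limma, where 8 of all genes were (0.0659%), and none had an unadjusted p under 0.05, against 9.25% of all genes. MVK at -0.45 ± 0.23 (limma adjusted p = 0.602), SCD at -0.47 ± 0.20 (limma adjusted p = 0.549) and FASN at -0.20 ± 0.19 (limma adjusted p = 0.781) lay below in all 4 accelerated libraries. Of the 31 genes, 3 thus lay below without overlap and 0 above. Of all 12135 genes, 817 lay below and 764 above. The sterol medians of the 2 accelerated groups had opposite signs against high-to-low (0.20 and -0.28), the fatty acid medians the same sign (-0.26 and -0.22). Both use the same high-to-low libraries, and the sterol median of 0.20 became -0.10 without high-potential replicate 2, so the opposite signs are not stable. Without HEC-1B accelerated replicate 1, the averaged comparison had a sterol median of 0.09 and a fatty acid median of -0.35.

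Replicates of a group differed in the sterol enzymes as well. Replicate 2 was above replicate 1 in 14 of 17 enzymes in the high-potential accelerated group (median log2 difference 0.47) and in 14 of 17 in the high-to-low group (0.44), but in 8 of 17 in the HEC-1B accelerated group (-0.003). Over all genes the corresponding shares were 49.5, 49.7 and 49.9%. Summed over the 17 enzymes, the libraries held 1839 and 2594 FPKM in the high-potential accelerated group, 1350 and 1523 FPKM in the HEC-1B accelerated group and 1470 and 1932 FPKM in the high-to-low group. High-to-low replicate 2 thus lay above high-potential replicate 1 in this sum. HMGCS1 went against that order, being lowest of all in high-to-low replicate 2, where ACAT2, MVK, IDI1, HSD17B7 and EBP were highest of all. The quotient of HMGCS1 over IDI1 was 0.705 and 1.45 in high-potential accelerated cells, 0.694 and 0.435 in HEC-1B accelerated cells and 0.662 and 0.154 in HEC-1B high-to-low cells. Of the 5 control genes, replicate 2 was above replicate 1 in 1 of 5 in each group.

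**Figure D4:**
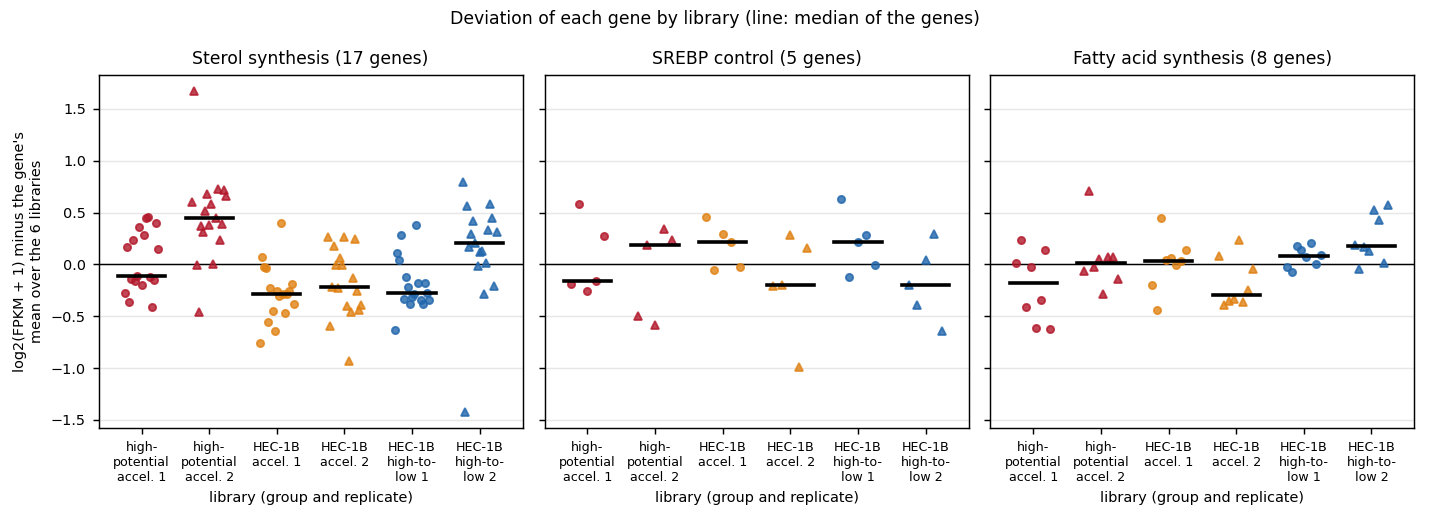
Deviation of each tested gene from its own mean over the 6 libraries, on the log2(FPKM + 1) scale, for the 17 sterol enzymes, the 5 SREBP control genes and the 8 fatty acid genes. Each point is 1 gene in 1 library, red for high-potential accelerated, orange for HEC-1B accelerated and blue for HEC-1B high-to-low, and the black line is the median over genes. The sterol medians are highest in high-potential replicate 2 (0.45) and next in high-to-low replicate 2 (0.21), and the lone point at the bottom of that library is HMGCS1.

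The wider pathway was read from 8 lists with 72 genes, 65 of them tested. These lists too were chosen with earlier results of these data known. In the comparison of high-potential accelerated with high-to-low libraries, 1 of the 65 passed the test, where 97 of all 12135 genes did (0.799%). SLC25A1, the mitochondrial carrier that exports the citrate ACLY cleaves, fell to 50.3 and 44.4 FPKM in high-potential accelerated cells, against 105.9 and 125.9 FPKM in HEC-1B high-to-low cells, and stood at 101.4 and 105.9 FPKM in HEC-1B accelerated cells. That is -1.27 ± 0.19 on the log2 scale (SE), with a limma adjusted p of 0.0496. The call was lost when any 1 of the 6 libraries was left out, where limma's adjusted p was 0.183 or 0.316 on omitting a high-potential library (replicate 1 or 2), 0.0612 or 0.0622 on omitting a HEC-1B accelerated one, and 0.187 or 0.325 on omitting a high-to-low one, at differences of -1.15 to -1.39. Against the HEC-1B accelerated libraries it was -1.12 (limma adjusted p = 0.079), or -1.15 without replicate 1 of that group (limma adjusted p = 0.221). Of the 5 tested genes of its list, which supply acetyl-CoA and NADPH or regulate fatty acid synthesis, 2 were higher in the high-potential accelerated than in HEC-1B high-to-low cells.

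Mitochondrial beta-oxidation, the breakdown route opposite to synthesis, had lower values in all 11 of its genes in high-potential accelerated cells, both against the high-to-low libraries (median -0.46) and against the HEC-1B accelerated libraries (median -0.43), and none was called by limma. Both comparisons use the same 2 high-potential libraries, and 49.2 and 50.4% of all genes were higher in them. Without overlap, 5 and 4 of the 11 lay below, against 26.4 and 22.3% of all genes. The smallest differences, those of ACADM, were -0.03 in each comparison. At an unadjusted p under 0.05, 4 and 3 of the 11 were lower, against 18.4 and 14.3% of all genes in either direction. SLC25A20, the carnitine carrier, had 5.99 and 5.55 FPKM in high-potential accelerated cells, 26.4 and 16.5 FPKM in HEC-1B accelerated cells and 27.8 and 17.8 FPKM in HEC-1B high-to-low cells, a difference of -1.78 ± 0.31 against the last (limma adjusted p = 0.0709). ACAA2, a thiolase of that route, was at -0.83 ± 0.21 (limma adjusted p = 0.117). Between HEC-1B accelerated and high-to-low libraries, 8 of the 11 were lower, at a median of -0.06. Without HEC-1B accelerated replicate 1, 8 of the 11 were lower in the high-potential accelerated than in HEC-1B accelerated cells (median -0.36), and 6 of the 11 in HEC-1B accelerated than in HEC-1B high-to-low cells (median -0.05).

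None of the other 6 lists held a called gene in limma in any of the 4 comparisons. For the high-potential accelerated against the high-to-low libraries, the values higher were 4 of 7 for SREBP processing and sterol-regulated degradation, 5 of 7 for lysosomal sterol release, 3 of 6 for the sterol sensor LXR and its targets, 4 of 8 for esterification and lipid droplets, 3 of 9 for the isoprenoid branch and 5 of 12 for fatty acid activation and elongation. In the same order, 1, 2, 1, 1, 1 and 4 of these genes had an unadjusted p under 0.05, where 18.4% of all genes did. Against HEC-1B accelerated libraries the high-potential accelerated ones were higher in 4 of 7, 5 of 7, 4 of 6, 4 of 8, 3 of 9 and 9 of 12 genes of these lists. Without HEC-1B accelerated replicate 1 these were 4, 5, 4, 2, 3 and 10. Among the list genes, ELOVL7, an elongase, was at -1.39 ± 0.32 (limma adjusted p = 0.105), with 4.17 and 1.93 FPKM in high-potential accelerated cells and 9.92 and 8.50 FPKM in HEC-1B high-to-low cells. ACSL1, an acyl-CoA synthetase, was at -1.28 ± 0.52 (limma adjusted p = 0.265), LIPA, the lysosomal lipase, at -1.03 ± 0.29 (limma adjusted p = 0.149) and NR1H3, which encodes LXR-alpha, at -0.85 ± 0.30 (limma adjusted p = 0.218). SOAT1, which esterifies cholesterol for storage, was at -0.63 ± 0.17 (limma adjusted p = 0.144). On the other side stood FNTA, a subunit of protein farnesyltransferase, at 0.78 ± 0.21 (limma adjusted p = 0.137) and ERLIN2, a membrane protein of sterol-regulated degradation, at 0.63 ± 0.22 (limma adjusted p = 0.218).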

How the data were processed

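Total RNA from 6 HEC-1B libraries in 3 groups of 2 was measured by bulk RNA-seq. SMART-Seq v4 cDNA, which does not mark strand, was turned into Nextera libraries, per the labels' protocols. The authors deposited 1 FPKM value per gene symbol and library, made, per the submitters' processing notes, with TopHat2 2.0.13 and Cuffnorm 2.2.1 on hg19. The sources used here do not give the annotation or how libraries were scaled. The filter of 1 FPKM in 2 libraries left 12135 of 23284 genes, whose log2(FPKM + 1) values entered a single fit over all 6 libraries in limma 3.58.1 (R 4.3.3) with a variance trend and 3 residual degrees of freedom. Calls use a two-sided Benjamini-Hochberg adjusted p under 0.05 over all genes tested. The fit was tested on simulated data. An exact permutation test of 2 against 2 libraries cannot go below p = 0.333, so none is given.

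Depth was recovered in part from the steps between values under 0.3 FPKM. Differences are named for called genes and for the 4 most positive and 4 most negative among those without overlap between groups, and from the pathway lists for called genes and at most 2 more a list, those with the greatest absolute difference among genes at an unadjusted p under 0.05. The unadjusted limit, and MSMO1, were added after the values were seen, and 1 list gene that meets the rule is not reported here. The members and lists were chosen with earlier results of these data known. Promoter sequences are RefSeq's, on GRCh38.p14. All 39 windows were checked for whether a stretch just past the start occurs within a transcript of the same gene. It did in 35 of them. Alternatives used a pseudocount of 0.1, other filters, scalings and variance models, fewer libraries, a replicate block, or a term for the description number.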

Additional observations from a re-analysis of the deposited data

How the results depend on the processing

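No member was called under any alternative except the replicate block (a term that matches libraries by replicate number), under which 2 were called between high-potential accelerated and high-to-low (FDFT1 at adjusted p = 0.0416 and ELOVL6 at 0.0452 in limma) and 2 between high-potential accelerated and HEC-1B accelerated (FDFT1 at 0.0397 and MSMO1 at 0.0432). It also took SLC25A20, ACAA2, LIPA and ELOVL7 past the threshold in the first of these comparisons (adjusted p 0.0161 to 0.0422), and changed no other call of a named gene. No label says that the numbers pair libraries, and the deviations of same-numbered libraries correlated at 0.158 to 0.281 over genes. The block raised calls over all genes to 944 (97 without it) and 546 (60 without it) in these comparisons. Without the block, the other alternatives gave 13 to 115 and 14 to 105 calls. Between HEC-1B accelerated and high-to-low they gave 0 to 7 (main value 2), and for both accelerated groups averaged 0 to 17 (main value 8), the block included. Leaving out 1 library moved the sterol median between -0.10 and 0.63 for high-potential accelerated against high-to-low, 0.18 and 0.74 against HEC-1B accelerated, and -0.28 and 0.32 for the average of both. It moved the number of higher values between 2 and 7 sterol enzymes and 0 and 2 fatty acid genes for HEC-1B accelerated against high-to-low, and 3 and 5 fatty acid genes between the accelerated groups, omissions added after seeing the data. The cause was not tested. Of 37 differences followed, none changed sign in any of 589 values under these settings. All 37 were of genes without overlap between the groups compared. Leaving out a library cannot turn the sign of such a difference, so the constant sign says little about stability. SLC25A1 lost its call in 12 of 16 settings (adjusted p 0.0164 to 0.325). No scaling moved the median of all genes past 0.06. SQLE rests on 1 to 18 fragments a library, and whether more were lost in the authors' counting was not tested.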
